A study of Homo sapiens with 6 samples.

Results

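Double-strand break signalling and repair genes were examined in MM.1R, a glucocorticoid-resistant line from human multiple myeloma, on 3'-biased PrimeView expression arrays. The list held 49 genes, taken as named and sorted by role into damage kinases and mediators (12), homologous recombination (19), the Fanconi anaemia pathway (10) and end joining (8). Of these, 45 were measured among 17534 genes in all, each on the brightest of the probe sets that name it alone, and 4 are not analysed here (2 of homologous recombination and 2 of the Fanconi group). The epirubicin group held 3 arrays of cells given epirubicin hydrochloride, a topoisomerase II poison of the anthracycline class. The shCtrl group held 3 arrays of cells infected with shCtrl, a control for short hairpin knockdown. Both groups were the same line in the same medium. Neither the dose nor the duration of treatment is given in the sources used here. Since shCtrl is named for the controls and not for the drug arrays, an effect of the drug and one of the vector cannot be told apart. Whether replicates were separate cultures is not stated, and p-values cover only the spread among these arrays, possibly a technical one.

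Double-strand breaks, the lesion left when topoisomerase II is trapped on DNA, are sensed by the MRE11-RAD50-NBN complex and by the Ku heterodimer. The kinases ATM, ATR and DNA-PKcs pass the signal on through the histone H2AX, the mediator MDC1 and the checkpoint kinases CHEK1 and CHEK2. Breaks are then repaired either by homologous recombination, which copies the sister chromatid and works in S and G2 phase, or by end joining, which seals the ends directly at any stage of the cycle. The Fanconi anaemia proteins unhook crosslinks and feed them into recombination. Much of this response acts through phosphorylation, ubiquitination and relocation of proteins that are already present, which an expression array does not measure.

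Differences in transcripts of the break response were small in fold and ran in both directions. The median absolute log2 fold change was 0.127 over the 45 members and 0.096 over all genes, a distance that was not tested. At the study's threshold, an adjusted p under 0.05 and a fold of at least 1.3, 0 of the 45 members were higher with epirubicin and 1, NBN, was lower, where 4.36% of all genes were higher and 2.14% lower (limma). At an unadjusted p under 0.05 and the same fold the counts were again 0 and 1, where 4.4% of all genes were higher and 2.17% lower, and no member was more than 1.21-fold higher. With the fold threshold dropped, 9 members rose and 10 fell, against a background of 15.6% of all genes higher and 13.5% lower at an adjusted p under 0.05. As shares of the members these were 20% and 22.2%, and the distance from the background was not tested. Below, "rose" and "fell" refer to this second rule, and the largest difference of any member was 1.32-fold. The 95% confidence interval (CI) of 39 of the 45 members lay wholly inside a 1.3-fold change in either direction. The share of all genes with such an interval was not computed. The members were brighter than genes at large: 41 of 45 lay above the median of all values, against 9935 of 17534 genes. Shares among equally bright genes were not computed, a limit of every share over all genes given here.

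The counts by role were as follows. Of 17 recombination genes, 6 rose (35.3%) and 1 fell, with a median log2 fold change of 0.10. Of 8 end joining genes, 1 rose and 5 fell (62.5%), with a median of -0.17. Among 12 kinases and mediators 0 rose and 3 fell, with a median of -0.12. Among 8 Fanconi genes 2 rose and 1 fell, with a median of -0.09. At an unadjusted p under 0.05 (limma), 9 recombination genes were higher and 2 lower, and 1 end joining gene was higher and 5 lower. By that rule 0 kinases and mediators were higher and 7 lower, and 2 Fanconi genes were higher and 3 lower. Beside these, 21.5% of all genes were higher and 17.8% lower. The median over all genes was 0.02. These shares and medians are descriptions, and the groups of genes were not tested against each other. The 3 epirubicin arrays all lay above the 3 shCtrl arrays for 13 members and all below them for 18, while 14 overlapped. Over all genes 23.8% lay above and 20.1% below in this way. In either direction, 68.9% of members did not overlap, against 43.8% of all genes, and the distance was not tested. Centring each array on its median, which lowers the epirubicin arrays slightly, turned the split of 9 higher and 10 lower into 7 higher and 17 lower. It shifts every gene of an array alike, and the shares of all genes called after centring were not computed. RNA came from whole cultures, in which a smaller share of cells with a transcript and less of it per cell cannot be told apart.

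**Figure D1:**
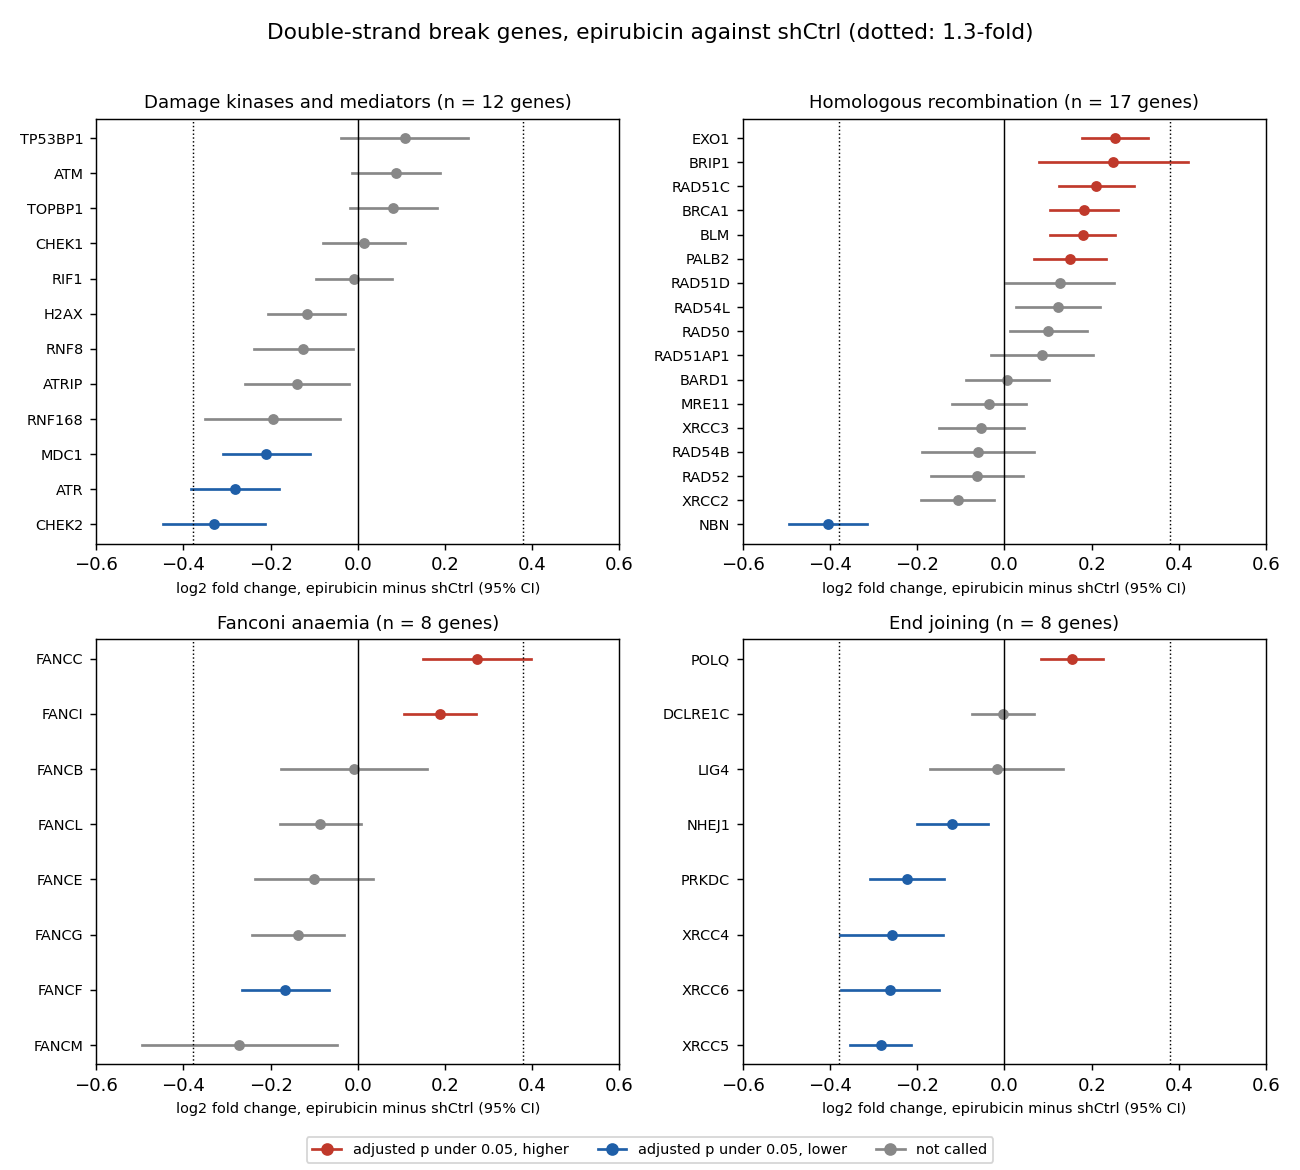
Log2 fold change, epirubicin minus shCtrl, of each of the 45 measured members with its 95% CI from limma (3 arrays per group), in 4 panels by role; dotted lines mark a 1.3-fold change, and colours mark an adjusted p under 0.05. NBN, at -0.40, is the 1 point beyond a dotted line; recombination genes lie mostly right of 0 and end joining genes mostly left.

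Among the kinases, ATR, which answers to single-stranded DNA at stalled forks and resected ends, and CHEK2, the checkpoint kinase activated by ATM, both fell. CHEK2 read 7.74, 7.81 and 7.89 (log2 values) on the 3 epirubicin arrays, against 8.11, 8.12 and 8.20 on the 3 shCtrl arrays. All epirubicin arrays lay below all shCtrl arrays, a 1.26-fold difference (log2 fold change -0.33, SE 0.05, limma adjusted p = 0.00304), and both of its probe sets fell. Both carry the suffix that marks probes shared with other transcripts, and near-identical CHEK2 copies exist in the genome, so its value is uncertain in that respect. ATR read 7.99, 8.04 and 8.03 on epirubicin arrays, against 8.24, 8.37 and 8.29 on shCtrl arrays. The groups again did not overlap, and the difference was 1.22-fold (log2 fold change -0.28, SE 0.04, limma adjusted p = 0.00318), on its only probe set. ATRIP, the obligate partner of ATR, lay at -0.14 (CI -0.26 to -0.02) and missed the threshold (limma adjusted p = 0.0829). Of the 6 omissions of 1 array, only that of shCtrl replicate 3, its array nearest the epirubicin values, gave a call (limma adjusted p = 0.0310).

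ATM and CHEK1, the other apical and effector kinases, were not called. ATM read 8.38, 8.47 and 8.35 on epirubicin arrays, against 8.30, 8.30 and 8.34 on shCtrl arrays (log2 fold change 0.09, CI -0.01 to 0.19, limma adjusted p = 0.180). The groups lay apart by little, and the mean of its 5 probe sets pointed the other way, at -0.09. A dimmer one of the 5 was called lower (-0.23, CI -0.35 to -0.11), and the others were not called. CHEK1 read 8.94, 8.91 and 8.88 on epirubicin arrays, against 8.84, 8.92 and 8.93 on shCtrl arrays. These overlapped (log2 fold change 0.01, CI -0.08 to 0.11). Of its 6 probe sets a dimmer one was called higher (0.13, CI 0.05 to 0.20), and the other 5 were not called.

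Of the chromatin mediators, MDC1, which binds phosphorylated H2AX and holds the signalling complex at the break, fell. It read 8.31, 8.41 and 8.34 on epirubicin arrays, against 8.52, 8.56 and 8.61 on shCtrl arrays, a 1.16-fold difference without overlap (log2 fold change -0.21, SE 0.04, limma adjusted p = 0.0106). A second of its 4 probe sets also fell, and their mean, -0.10, was not called (limma adjusted p = 0.0538). H2AX itself, the histone variant whose phosphorylation marks breaks, read 10.87, 10.93 and 10.91 on epirubicin arrays, against 11.05, 10.98 and 11.03 on shCtrl arrays. Its arrays did not overlap either, but it missed the threshold (log2 fold change -0.12, CI -0.21 to -0.03, limma adjusted p = 0.0566). The ubiquitin ligases RNF8 and RNF168, which act after MDC1, were at -0.12 and -0.20 and were not called. RNF168 was read at a low level, at 3.80 ± 0.11 on epirubicin arrays and 3.99 ± 0.07 on shCtrl arrays (SD, n = 3). Of the 6 omissions of 1 array, only that of epirubicin replicate 3, its array nearest the shCtrl values, gave a call (limma adjusted p = 0.0354). TP53BP1 and RIF1, which protect ends from resection, were at 0.11 and -0.01, and TOPBP1, the activator of ATR, at 0.08, none of the 3 called.

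Of the MRE11-RAD50-NBN complex, which senses and trims broken ends and recruits ATM, NBN fell. It read 8.35, 8.26 and 8.25 on epirubicin arrays, against 8.69, 8.68 and 8.70 on shCtrl arrays. The groups lay far apart beside their spread, at 1.32-fold (log2 fold change -0.40, SE 0.04, limma adjusted p = 0.000522). All 5 of its probe sets fell, by log2 fold changes of -0.24 to -0.46, and 3 of them passed the 1.3-fold threshold, while their mean of -0.37 lay just under it. The other subunits were not called: MRE11 differed by -0.04 (CI -0.12 to 0.05) and RAD50 by 0.10 (CI 0.01 to 0.19, limma adjusted p = 0.0890). On secondary, dimmer probe sets MRE11 fell on 1 of 5 (-0.32) and RAD50 on 1 of 3 (-0.15). All 5 of MRE11 lay below 0, and their mean was called lower (-0.13, limma adjusted p = 0.0164). The mean of the 3 of RAD50 was not called (0.02, limma adjusted p = 0.635).

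Of the enzymes of resection and unwinding, EXO1 and BLM rose. EXO1, the exonuclease of long-range resection, read 8.50, 8.55 and 8.53 on epirubicin arrays, against 8.30, 8.27 and 8.26 on shCtrl arrays. Every epirubicin array was higher, by 1.19-fold on average (log2 fold change 0.25, SE 0.03, limma adjusted p = 0.00151). BLM, the helicase that takes part in resection and in dissolving joint molecules, rose by 0.18 (SE 0.03, limma adjusted p = 0.00639). Each of these genes was read by 1 probe set.

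The BRCA1 module was mixed. BRCA1, a ubiquitin ligase that promotes resection, read 8.59, 8.63 and 8.58 on epirubicin arrays, against 8.39, 8.43 and 8.43 on shCtrl arrays. That was 1.13-fold higher without overlap (log2 fold change 0.18, SE 0.03, limma adjusted p = 0.00693), on 1 of its 5 probe sets. The other 4 ran from -0.03 to 0.25 and were not called, nor was the mean of all 5 (0.11, limma adjusted p = 0.0560). The called probe set carries the suffix for shared probes, and the brightest without it was at -0.03. Its obligate partner BARD1 did not differ detectably (0.01, CI -0.09 to 0.10). BRIP1, a helicase bound by BRCA1, read 5.38, 5.56 and 5.55 on epirubicin arrays, against 5.18, 5.36 and 5.20 on shCtrl arrays, close to each other in epirubicin replicate 1 and shCtrl replicate 2. Its rise of 0.25 (SE 0.07, limma adjusted p = 0.0400) was lost without epirubicin replicate 2 or 3 or shCtrl replicate 1 or 3 (adjusted p = 0.110 to 0.118). It was lost too with the mean of its probe sets (adjusted p = 0.157), quantile normalization (0.0687) and median centring (0.0629). PALB2, the bridge between the BRCA proteins, rose by 0.15 (SE 0.03, limma adjusted p = 0.0180), a call lost without epirubicin replicate 3 or shCtrl replicate 1 or 3 (adjusted p = 0.0547 to 0.0622), and with median centring (0.0546) or the replicate number as a block (0.0614).

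Of the genes that act in the later steps of recombination, RAD51C rose. It read 9.05, 9.08 and 9.13 on epirubicin arrays, against 8.85, 8.89 and 8.88 on shCtrl arrays. All epirubicin arrays were higher, by 1.16-fold (log2 fold change 0.21, SE 0.04, limma adjusted p = 0.00537), and 3 of its 4 probe sets rose, the exception being very dim. Others of these were not called, with RAD51D at 0.13, XRCC2 at -0.11 and XRCC3 at -0.05. XRCC2 fell on the dimmer of its 2 probe sets (-0.16), and their mean was called lower (-0.13, limma adjusted p = 0.0254). The mean of the 5 probe sets of RAD51D lay at -0.02 and was not called (limma adjusted p = 0.693). The translocases RAD54L and RAD54B, at 0.12 and -0.06, the mediator RAD52, at -0.06, and RAD51AP1, at 0.09, were not called either. RAD52 was read by 12 probe sets, the most of any member, of which 2 dim ones rose.

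Fanconi genes split within the pathway. FANCC, a subunit of the core ubiquitin ligase, read 6.59, 6.66 and 6.74 on epirubicin arrays, against 6.45, 6.37 and 6.34 on shCtrl arrays. The groups did not overlap at a 1.21-fold difference (log2 fold change 0.27, SE 0.05, limma adjusted p = 0.00824), but the other 2 of its 3 probe sets lay at 0.05 and -0.03, and the mean of the 3 was not called (0.10, limma adjusted p = 0.0867). FANCI, a substrate of that ligase, rose on 2 of its 3 probe sets and read 9.39, 9.46 and 9.41 on epirubicin arrays, against 9.24, 9.21 and 9.24 on shCtrl arrays. Its rise was 1.14-fold (log2 fold change 0.19, SE 0.03, limma adjusted p = 0.00711).

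FANCF, an adaptor of the core complex, fell, with 7.76, 7.81 and 7.84 on epirubicin arrays, against 7.91, 8.0 and 8.01 on shCtrl arrays. The values did not overlap (log2 fold change -0.17, SE 0.04, limma adjusted p = 0.0251), yet the call was lost without epirubicin replicate 1 or 2 or shCtrl replicate 2 or 3 (adjusted p = 0.0616 to 0.0825). The core subunits FANCG (-0.14), FANCB (-0.01) and FANCE (-0.10) and the catalytic subunit FANCL (-0.09) were not called. FANCM, the translocase that anchors the core complex, had a larger difference and a wider interval (-0.27, CI -0.49 to -0.05, limma adjusted p = 0.0733). Of the 6 omissions of 1 array, only that of epirubicin replicate 3, its array nearest the shCtrl values, gave a call (limma adjusted p = 0.0363). With the mean of all probe sets of a gene, FANCG, FANCL and FANCM were called lower (-0.14, -0.13 and -0.23, limma adjusted p = 0.0465, 0.0238 and 0.0255). FANCB and FANCE were not (limma adjusted p = 0.936 and 0.118). FANCG has only 1 probe set, so its values were unchanged there. On dimmer probe sets, 1 each of FANCL, FANCM and FANCE fell.

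Of the 8 end joining genes 5 fell, 4 of them whichever array was left out, among them both subunits of Ku, the ring that caps broken ends, and the kinase it recruits. XRCC5, which encodes Ku80, read 10.43, 10.40 and 10.43 on epirubicin arrays, against 10.70, 10.70 and 10.71 on shCtrl arrays. XRCC6, which encodes Ku70, read 11.00, 11.03 and 11.06 on epirubicin arrays, against 11.25, 11.38 and 11.24 on shCtrl arrays. PRKDC, which encodes the catalytic subunit of DNA-PK, read 9.87, 9.90 and 9.85 on epirubicin arrays, against 10.06, 10.09 and 10.14 on shCtrl arrays. In all 3 genes every epirubicin array was below every shCtrl array. The differences were alike in size, 1.22-fold for XRCC5 (log2 fold change -0.28, SE 0.03, limma adjusted p = 0.000739), 1.20-fold for XRCC6 (-0.26, SE 0.05, limma adjusted p = 0.00680) and 1.17-fold for PRKDC (-0.22, SE 0.04, limma adjusted p = 0.00412). Both probe sets of XRCC5, both of XRCC6 and 3 of the 4 of PRKDC fell, and 1 of PRKDC, at -0.53, passed the 1.3-fold threshold. Both of XRCC6 carry the suffix for shared probes, so its value is uncertain in that respect. The brightest of PRKDC carries it too, while its others that fell, and both of XRCC5, do not.

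Of the ligation factors, XRCC4, the scaffold of DNA ligase IV, read 6.56, 6.60 and 6.46 on epirubicin arrays, against 6.74, 6.84 and 6.81 on shCtrl arrays. It fell without overlap (log2 fold change -0.26, SE 0.05, limma adjusted p = 0.00887), on 3 of 4 probe sets. LIG4, the ligase itself, was not called (-0.02, CI -0.17 to 0.13). NHEJ1, which encodes the XRCC4-like factor XLF, fell by 0.12 on the log2 scale (limma adjusted p = 0.0397). The call was lost when any 1 of the 6 arrays was left out (limma adjusted p = 0.0558 to 0.115). Quantile normalization, the replicate block and using only probe sets without the suffix lost it too. Neither of its 2 probe sets carries the suffix, so its values were unchanged in that last setting. In the fit over every probe set neither was called (limma adjusted p = 0.0595 and 0.100). POLQ, the polymerase of the alternative, microhomology-mediated route, was the 1 member of this group that rose, by 0.16 (SE 0.03, limma adjusted p = 0.00863). It rose on 1 of its 2 probe sets, the dimmer lying at 0.09 (CI -0.04 to 0.21) and not called.

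DCLRE1C, which encodes the end-trimming nuclease Artemis, was the 1 member whose probe sets were called in both directions. The brightest differed by -0.003 and was not called, a second rose by 0.25 and the third fell by 0.15. Only the second lacks the suffix for shared probes.

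**Figure D2:**
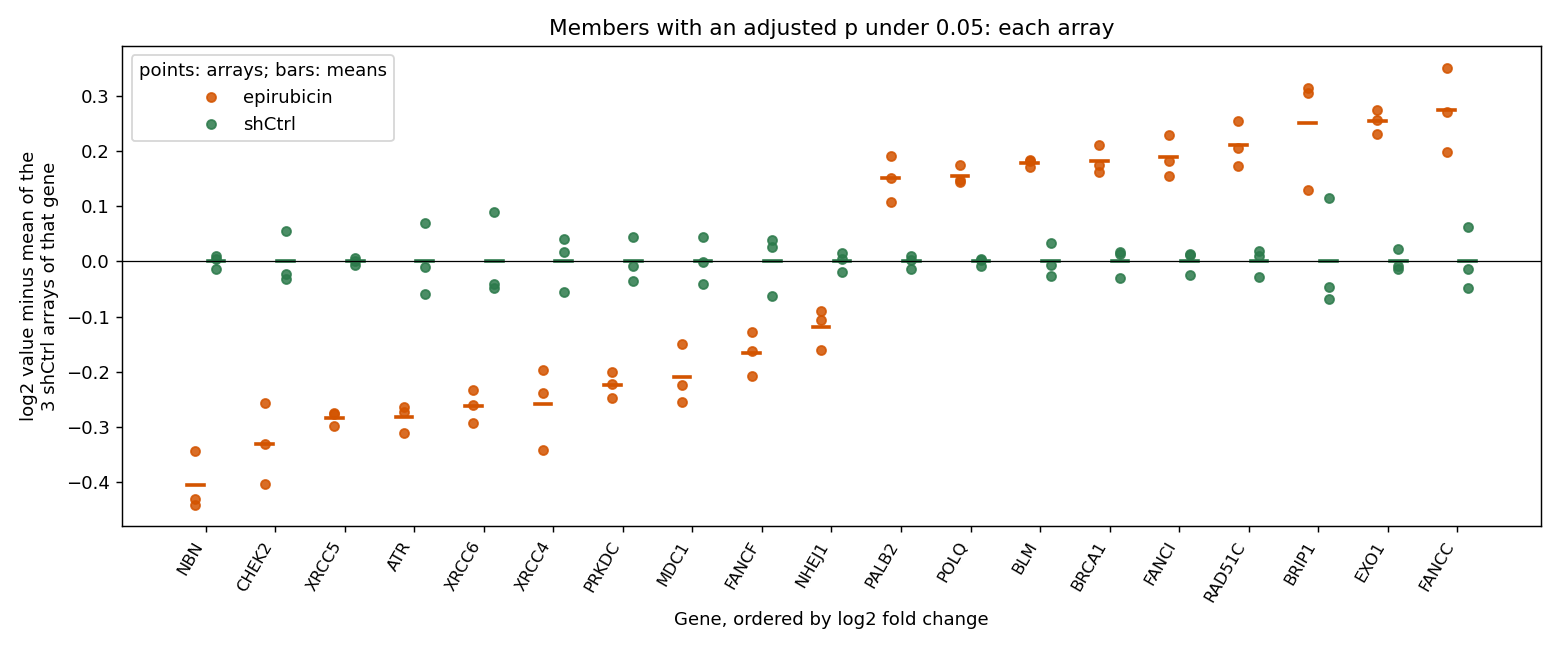
Each array's log2 value minus the mean of the 3 shCtrl arrays of that gene, for the 19 members with an adjusted p under 0.05, ordered by log2 fold change; epirubicin arrays (left) and shCtrl arrays (right) are points, and bars are means of 3. The groups do not overlap for any of the 19, from NBN at -0.40 to FANCC at 0.27, and lie closest for BRIP1.

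The members were read by 130 probe sets in all, from 1 to 12 a gene. In a fit over every probe set of the array, 16 of the 130 rose and 31 fell at an adjusted p under 0.05, where 11.8% of all probe sets were higher and 13.3% lower. With the 1.3-fold threshold 0 were higher and 5 lower, against 3.65% and 2.62% of all probe sets. The 5 belonged to NBN (3), PRKDC and FANCE, the last a dim probe set at -0.47 whose brighter partner was at -0.10. Of 31 members with more than 1 probe set, all probe sets had the same sign in 20. Ku, NBN, XRCC4 and RAD51C were among the genes whose probe sets all pointed 1 way, whereas BRCA1 and FANCC were not.

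**Figure D3:**
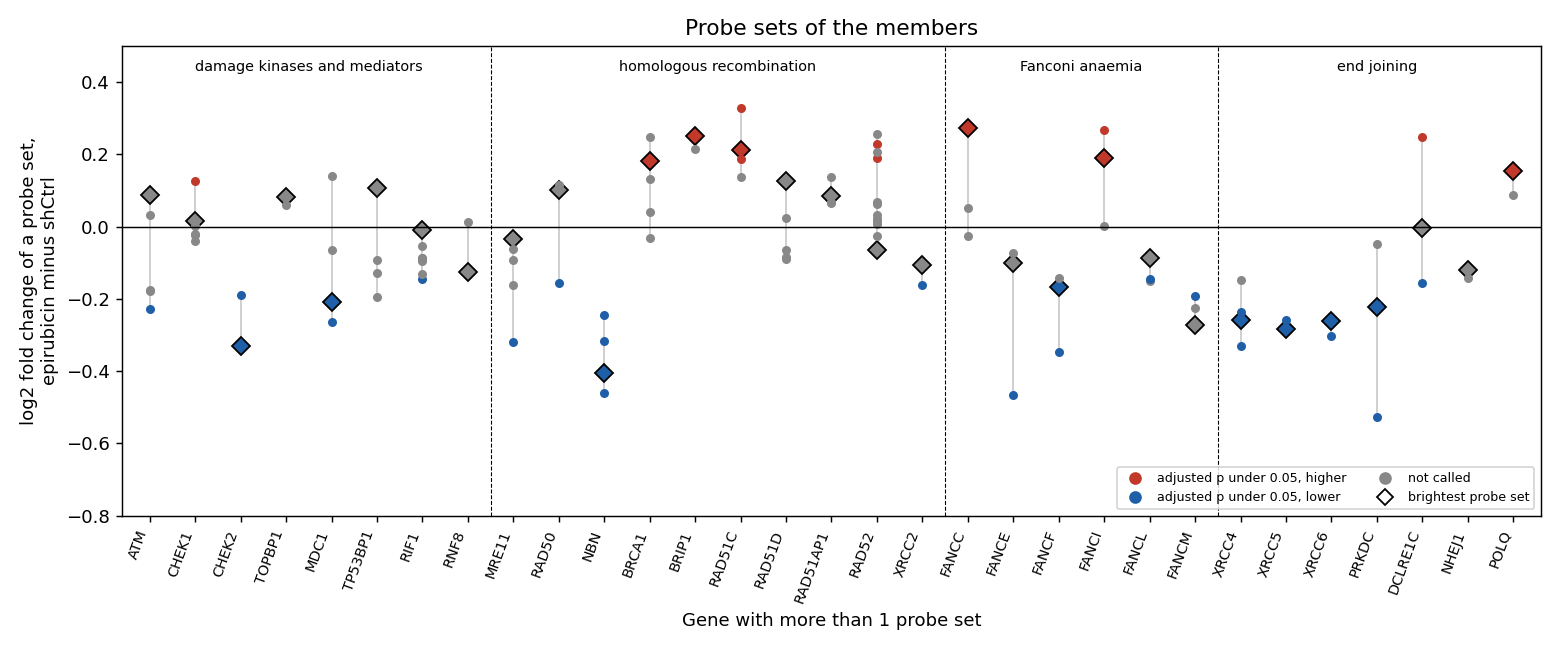
Log2 fold change, epirubicin minus shCtrl, of every probe set of the 31 members with more than 1, by gene and role; diamonds mark the brightest probe set, which stands for the gene elsewhere, and colours mark an adjusted p under 0.05 over all probe sets. All 5 probe sets of NBN and both of XRCC5 and of XRCC6 are lower, while DCLRE1C has 1 higher and 1 lower.

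Other genes of the same pathways were read from a longer list. Of 92 measured, 2 were higher and 1 lower at the study's threshold, where 4.36% of all genes were higher and 2.14% lower. At any fold 12 rose and 19 fell (13.0% and 20.7%), against 15.6% and 13.5% of all genes. Of 26 other signalling genes 3 rose and 8 fell, of 33 other recombination genes 4 rose and 3 fell, of 17 other Fanconi and crosslink genes 3 rose and 4 fell, and of 16 other end joining genes 2 rose and 4 fell. Their median log2 fold changes were -0.10 for signalling, 0.001 for recombination, -0.03 for Fanconi and crosslink genes and 0.05 for end joining, beside 0.10 and -0.17 for the recombination and end joining members. The 3 past 1.3-fold were RMI2, NABP1 and TIPIN. RMI2, a subunit of the complex in which BLM works, read 8.96, 9.07 and 9.01 on epirubicin arrays, against 8.56, 8.43 and 8.52 on shCtrl arrays. It rose 1.42-fold (log2 fold change 0.51, SE 0.05, limma adjusted p = 0.000598), more than any of the 45 members. NABP1, a single-stranded DNA binding protein also called SSB2, rose 1.37-fold (0.45, SE 0.06, limma adjusted p = 0.00246), and TIPIN, which stabilises replication forks with TIMELESS, was 1.30-fold lower (-0.38, SE 0.04, limma adjusted p = 0.000527).

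These differences stood beside much larger ones on the same arrays. All 20 measured G2/M genes fell, with a median of -0.72, and all 19 measured p53 target genes rose, with a median of 1.28, while 19 G1/S genes had a median of -0.02. The part of this shift in the values of the members was not tested. SDC1 (syndecan-1), the defining marker of plasma cells, averaged 11.66 on epirubicin arrays and 11.72 on shCtrl arrays, and the mean of 15 plasma cell markers per array was 9.88 to 9.92 with epirubicin and 10.03 to 10.05 with shCtrl, 2 of them, CD38 and IRF4, being lower at the study's threshold. Marker means of other cell types lay below that of the plasma cell markers in both groups. They were 4.38 to 4.43 with epirubicin and 3.87 to 3.89 with shCtrl for 11 myeloid markers, of which 3 were higher at the study's threshold. Among them ITGAM, an integrin chain named after its values were seen, averaged 6.99 with epirubicin and 3.25 with shCtrl (13.4-fold higher), while the median log2 fold change over the 11 was 0.13. For 12 stromal markers, also with 3 higher and including VIM (vimentin) at 12.40 with epirubicin and 12.01 with shCtrl, they were 5.10 to 5.15 with epirubicin and 4.78 to 4.85 with shCtrl. For 12 T and NK cell markers, with 0 higher, they were 4.77 to 4.85 with epirubicin and 4.73 to 4.74 with shCtrl. For 10 epithelial markers, with 1 higher, they were 4.85 to 4.92 with epirubicin and 4.75 to 4.79 with shCtrl. Their part in the members' values was not tested.

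Promoters of the members that moved most in each direction were read for letters known from cell cycle genes. Printed are the 2 with the largest rises and the 2 with the largest falls among members with an entry (NBN and XRCC5, which fell by more than ATR, have none), each from 250 bases before to 50 after the start (RefSeq, GRCh38.p14). They are FANCC (chr9:95317660-95317959, minus strand), EXO1 (chr1:241847954-241848253, plus strand), CHEK2 (chr22:28741771-28742070, minus strand) and ATR (chr3:142578684-142578983, minus strand), given 5′ to 3′ with motif matches in capitals.
FANCC: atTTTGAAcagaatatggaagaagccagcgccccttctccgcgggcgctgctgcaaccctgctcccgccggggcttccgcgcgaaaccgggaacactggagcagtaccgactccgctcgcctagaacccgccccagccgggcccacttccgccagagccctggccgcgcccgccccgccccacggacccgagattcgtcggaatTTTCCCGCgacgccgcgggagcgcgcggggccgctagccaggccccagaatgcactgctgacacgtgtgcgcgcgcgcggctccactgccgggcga
EXO1: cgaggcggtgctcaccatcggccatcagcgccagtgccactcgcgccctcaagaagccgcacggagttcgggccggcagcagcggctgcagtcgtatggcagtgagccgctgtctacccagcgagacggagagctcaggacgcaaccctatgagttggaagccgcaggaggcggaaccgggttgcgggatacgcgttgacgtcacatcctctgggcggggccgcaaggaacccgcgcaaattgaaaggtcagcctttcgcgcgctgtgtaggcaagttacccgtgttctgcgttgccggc
CHEK2: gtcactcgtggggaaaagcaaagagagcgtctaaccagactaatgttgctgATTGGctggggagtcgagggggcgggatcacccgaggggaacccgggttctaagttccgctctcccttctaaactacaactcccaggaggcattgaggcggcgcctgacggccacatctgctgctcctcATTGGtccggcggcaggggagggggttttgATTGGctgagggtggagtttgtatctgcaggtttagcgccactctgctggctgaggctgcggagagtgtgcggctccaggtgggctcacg
ATR: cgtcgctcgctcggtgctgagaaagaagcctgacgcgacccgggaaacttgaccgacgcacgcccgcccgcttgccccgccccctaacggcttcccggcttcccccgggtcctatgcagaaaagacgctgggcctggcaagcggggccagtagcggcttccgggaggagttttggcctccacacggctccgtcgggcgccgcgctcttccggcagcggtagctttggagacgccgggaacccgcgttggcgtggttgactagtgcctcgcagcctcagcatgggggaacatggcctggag

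The motifs, searched on both strands, were the cell cycle homology region TTTGAA, the CCAAT box and the E2F-type sites TTTCCCGC and TTTGGCGC. The FANCC promoter held 1 TTTGAA and 1 TTTCCCGC, that of CHEK2 held 3 CCAAT boxes, and those of EXO1 and ATR held none of the 4. Among the 40 members with an entry, TTTGAA occurred in 17.5%, against 15.4% of 27305 promoters. A CCAAT box occurred in 52.5% of the members and in 35.7% of all promoters, and either E2F site in 7.5% of the members and 2.31% of all promoters. Of the 8 members with an entry that rose, 3 held TTTGAA, 3 a CCAAT box and 1 an E2F site. Of the 7 that fell, 1 held TTTGAA, 5 a CCAAT box and 1 an E2F site. These matches are descriptions of the letters in these windows.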

How the data were processed

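The authors' deposited log2 expression values, 1 per probe set and array, were used for 47481 probe sets on 6 arrays. No label states the scale, which was taken as log2 from the range of 1.41 to 13.73. Per the submitters' processing notes the affy package was used; its version and the background correction and normalization steps are not stated in the sources used. A normalization before deposit would make all differences relative to the bulk of transcripts. Array medians ran from 5.52 to 5.57, arrays of 1 group correlated at 0.9982 to 0.9985 and arrays of different groups at 0.9945 to 0.9947. Without scanner files, background and scan batches were not examined. Precision is limited by the number of arrays.

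A single gene was named by 43976 probe sets, several by 1558 and none by 1947; symbols were updated to RefSeq (GRCh38.p14; 43954 matched). The brightest single-gene probe set over the 6 arrays stood for each of 17534 genes. limma 3.58.1 in R 4.3.3 compared epirubicin with shCtrl with no covariate, with Benjamini-Hochberg adjustment over all genes, and was tested on simulated data. SE and 95% CI are limma's. The members, the lists of other genes and the rule for naming genes were chosen with earlier results of these data known. By that rule values per array are given for members past the 1.3-fold threshold, for the 4 largest differences of each role among called members, and for ATM, ATR, CHEK1, CHEK2, BRCA1, PRKDC and H2AX; of the other pathway genes those past the threshold are named, and of the context lists at most 2. The RefSeq promoter table held entries for 40 of the 45 members, not for NBN, RAD54B, FANCI, XRCC5 and PRKDC. SDC1 is named as the defining plasma cell marker. Samples shared replicate numbers, but the deviations of same-numbered arrays from their group means correlated at -0.0587, -0.000359 and -0.00681, so the numbers were not taken as pairs. Alternatives were other ways of taking 1 value per gene, quantile normalization, median centring, a filter on dim genes, eBayes with trend and robust, a replicate block, adjustment over all probe sets and leaving out each array.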

Additional observations from a re-analysis of the deposited data

How the results depend on the processing

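The counts of members higher and lower at any fold were 9 and 10 as reported. Over the alternatives the higher count ran from 6 (mean of all probe sets of a gene) to 12 (eBayes with trend and robust). The lower count ran from 7 (only probe sets without a suffix for shared probes, an alternative chosen after seeing the data) to 17 (median centring). Without the suffix 40 members were left, CHEK2 and XRCC6 not among them. With only genes above the median of all values 16 were lower, where fewer genes were tested. These counts lack a background, since shares of all genes were not computed for the alternatives. No member was higher at the 1.3-fold threshold under any of them, and 1 was lower under all but the mean of all probe sets, which gave 0. With the replicate number as a block the counts were 8 and 9, with PALB2 and NHEJ1 lost; same-numbered arrays did not correlate best with each other. Leaving out 1 array gave 7 to 9 higher and 8 to 11 lower, and 0 higher and 1 lower each time at 1.3-fold. Members without overlap were then 13 to 15 and 18 to 20. Those counts cannot fall when an array is left out, so they do not bear on stability.

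The median log2 fold change was -0.0354 over all members, -0.121 for kinases and mediators, 0.1004 for recombination, -0.0932 for Fanconi genes and -0.1713 for end joining. In that order it was -0.06, -0.0961, 0.0836, -0.1319 and -0.1869 with the mean of all probe sets, and -0.068, -0.1537, 0.0678, -0.1258 and -0.2039 with median centring. Quantile normalization gave -0.0499 over all, 0.1279 for recombination and -0.1496 for end joining, genes above the median of all values gave -0.0182 over all, and probe sets without a suffix gave -0.0006 over all and 0.0023 for kinases and mediators, with 40 members left. Without 1 array it ran from -0.0497 to -0.0221, -0.1273 to -0.1042, 0.0885 to 0.1085, -0.105 to -0.0764 and -0.1787 to -0.1651.

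Signs turned, in genes not called as reported unless stated, with the mean of probe sets for ATM (-0.0927), TP53BP1 (-0.0772), RAD51D (-0.0181), RAD52 (0.0836) and DCLRE1C (0.03). They turned with quantile normalization for RIF1 (0.0218) and DCLRE1C (0.0247), with median centring for CHEK1 (-0.0178) and BARD1 (-0.0257), and with probe sets without a suffix for RNF8 (0.0127), RAD52 (0.2573), DCLRE1C (0.2483, called) and BRCA1 (-0.0312), which had been called higher. Without 1 array they turned for CHEK1 (-0.0156 to 0.0326), RIF1 (-0.0202 to 0.0149), BARD1 (-0.0122 to 0.0353), FANCB (-0.0513 to 0.0682), DCLRE1C (-0.0124 to 0.0069) and LIG4 (-0.0709 to 0.0517). The causes were not tested. Of the 19 called members, 15 kept their call without any 1 array; the exceptions were PALB2, BRIP1, FANCF and NHEJ1. H2AX, not called as reported, was called lower with the mean of probe sets, median centring, the filter on dim genes and eBayes with trend and robust (limma adjusted p from 0.000699 to 0.159 over all its alternatives). It has only 1 probe set, so of these settings only median centring changed its values.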
